A study of Arabidopsis thaliana with 15 samples.

Results

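The tau class of glutathione transferases was read here through 10 probe sets of the Affymetrix ATH1 array, among 15912 tested probe sets. A probe set was a member if the gene table of the platform listed 1 gene for it, with a symbol of GSTU and a number, and if at least 3 of the 15 arrays gave it more than 4 on the log2 scale. Of 28 tau genes in the RefSeq table, 11 had such a probe set before the filter and 17 had none listed to them alone, so those 17 were not analysed here. The members are GSTU15, GSTU16, GSTU18, GSTU20, GSTU22, GSTU23, GSTU25, GSTU26, GSTU27 and GSTU28. GSTU21 (AT1G78360) had a probe set that failed the filter, at 2.82 to 3.20 on the 15 arrays. Just inside the threshold lay GSTU22, at 3.97 to 5.12 and above 4 on 13 arrays, and GSTU15, at 4.13 to 4.88. The other members, GSTU15 included, were above 4 on all 15 arrays. GSTU22 lay under 4 only on bri1-5 replicate 1 and bak1-1D replicate 2, so no member passed through 1 genotype alone.

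The class is a plant-specific family of soluble enzymes that join glutathione to reactive or foreign molecules. The conjugates are then carried into the vacuole. Many tau genes lie side by side in the genome, and the family is known for rapid transcript responses to stress and hormones. Brassinosteroids are steroid hormones of plants that are perceived at the cell surface by the receptor kinase BRI1 with its co-receptor BAK1.

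RNA came from whole seedlings kept in the light for 5 days on solid MS medium with 1% sucrose. WS2 is the wild type and the background of every line. The mutant bri1-5 carries a weak allele of BRI1, and the 3 suppressor lines, bri1-1D, bak1-1D and brs1-1D, all carry bri1-5 as well as a dominant suppressor named after BRI1, BAK1 or the serine carboxypeptidase-like gene BRS1. Each genotype was measured as 3 biological replicates on 1 array each, from 1 line per suppressor. Replicate numbers are those of the titles, because the descriptions give every bak1-1D and brs1-1D array as repeat 1. No probe set was listed to BRI1, BAK1 or BRS1 alone, so the level of the suppressor genes was not analysed here. Array medians of tested probe sets were 6.75 to 6.82 on the log2 scale. The 5 measured markers of shoot (LHCB4.1, PRK and RCA, of 27 fixed) and root (EXPA7 and EXPA18, of 24 fixed) were above the filter on all 15 arrays, so the seedlings showed transcripts of both organs.

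The question put to these genes was which of them differ between genotypes and whether a suppressor moves them away from bri1-5 or toward WS2. All 15 arrays entered 1 linear model (limma), and a difference counts as called if its p, adjusted by Benjamini-Hochberg over all 15912 tests, fell under 0.05. Differences are log2 values with the model's standard error (SE), from 3 arrays of either genotype. Depending on the 2 genotypes compared, 13.6% to 36.2% of all tested probe sets had no overlap of arrays. By limma's F test over the 5 genotypes, GSTU15, GSTU18, GSTU20, GSTU22, GSTU25 and GSTU27 were called, which is 6 of 10 beside 27.1% of all tested probe sets. Taken pair by pair, 7 of the 10 members were called in at least 1 of 10 genotype comparisons, the seventh being GSTU16. The share of all tested probe sets called in at least 1 comparison was not computed, so that count has no base. Of 100 member comparisons 16 were called, while the share of all probe sets called ran from 0.245% to 20.7% between comparisons. No share pooled over the 10 comparisons was computed for all probe sets, so this count has no base either.

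**Figure D1:**
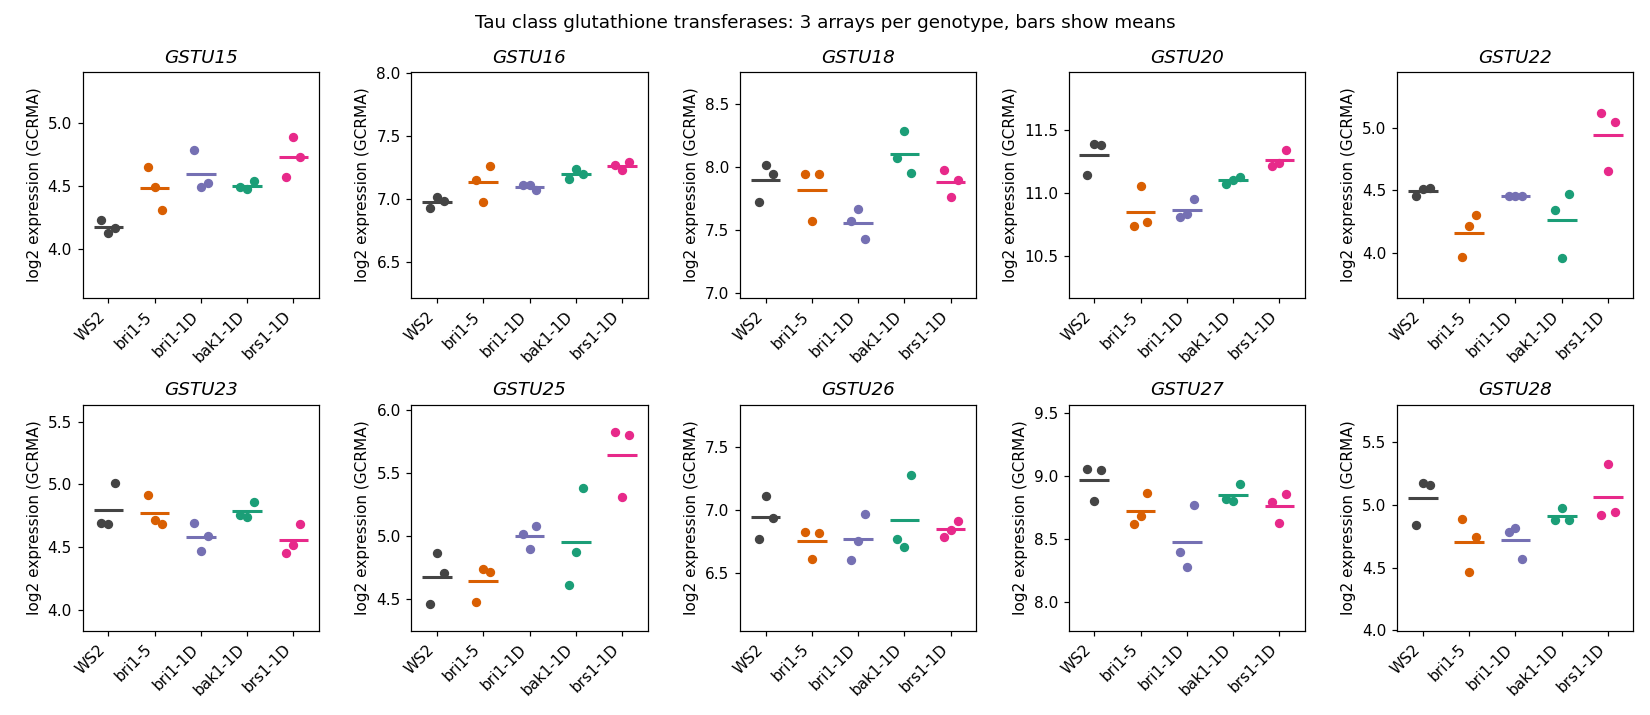
The log2 expression value (vertical axis, GCRMA scale, the same span of units in every panel) of each of the 10 tau class members on the 3 arrays of each genotype (points), with the mean of the genotype as a bar. GSTU22 and GSTU25 stand highest in brs1-1D, GSTU20 stands lowest in bri1-5 and bri1-1D, and GSTU15 stands lowest in WS2.

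GSTU20 (AT1G78370), whose protein is known to bind the jasmonate-conjugating enzyme FIN219/JAR1 in light signalling, was lower in bri1-5 than in WS2 and higher in brs1-1D than in bri1-5. Its log2 values were 11.15, 11.39 and 11.38 in WS2 and 10.74, 11.06 and 10.77 in bri1-5. Every bri1-5 array lay below every WS2 array. In bri1-1D the values were 10.81, 10.84 and 10.95, in bak1-1D they were 11.07, 11.10 and 11.13, and in brs1-1D they were 11.22, 11.24 and 11.35. All bak1-1D and brs1-1D arrays lay above all bri1-5 arrays, the bri1-1D arrays overlapped with bri1-5, and the brs1-1D arrays fell within the span of WS2.

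GSTU20 fell in bri1-5 against WS2 by 0.45 ± 0.09 on the log2 scale (SE, adjusted p = 0.00388), or 1.37-fold. It also fell in bri1-1D against WS2 by 0.44 ± 0.09 (limma adjusted p = 0.00397). It rose in brs1-1D against bri1-5 by 0.41 ± 0.09 (limma adjusted p = 0.0365), or 1.33-fold, and the difference of brs1-1D from WS2 was -0.04 with a 95% interval of -0.24 to 0.16. In bak1-1D it was 0.25 ± 0.09 above bri1-5 (limma adjusted p = 0.161) and 0.21 below WS2 (a difference of -0.21, adjusted p = 0.183), and neither was called. All bak1-1D arrays nonetheless lay below all WS2 arrays as well as above all bri1-5 arrays. With array weights the difference from bri1-5 was called (limma adjusted p = 0.0467). These comparisons share the bri1-5 and WS2 arrays and are not independent of each other. The 2 falls held whichever array was left out. The rise in brs1-1D was not called without bri1-5 replicate 1 or 3, bak1-1D replicate 1 or any 1 of the 3 brs1-1D arrays (limma adjusted p from 0.0505 to 0.131), nor in a fit of the compared groups alone (0.0909).

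Root markers and an rRNA control of the array are given beside GSTU20, since their means too differed between these genotypes. The summed linear level of the root hair expansins EXPA7 and EXPA18 ran from 87.7 to 102 in WS2, 64.5 to 86.0 in bri1-5, 63.0 to 80.8 in bri1-1D, 85.0 to 116 in bak1-1D and 91.1 to 113 in brs1-1D. Neither expansin was called in bri1-5 or bri1-1D against WS2 or in brs1-1D against bri1-5 (limma adjusted p from 0.0517 to 0.257). Over the 3 shoot markers the sum ran from 17642 to 19929 across all arrays. Of these markers PRK was called lower in bri1-1D than in WS2 (-0.26 ± 0.08, limma adjusted p = 0.0381), without overlap of arrays. The other shoot markers, LHCB4.1 and RCA, differed there by 0.04 and 0.02 and were not called. On the log2 scale the array control for 25S rRNA ran from 6.10 to 6.27 in WS2, 7.01 to 7.68 in bri1-5, 7.94 to 8.50 in bri1-1D, 6.38 to 7.30 in bak1-1D and 6.24 to 7.13 in brs1-1D. The part of the root markers, of PRK or of the rRNA control in the differences of GSTU20 was not tested. In RNA of whole seedlings fewer cells of a type and less RNA per cell cannot be told apart. The actin 3′ minus 5′ control difference, a sign of RNA integrity, was 0.77 to 1.16 over all arrays, with genotype means between 0.92 and 1.00. That of GAPDH was less even, at -0.53 to -0.42 in bak1-1D and at -0.41 to -0.17 in the other genotypes, without overlap. For ubiquitin the genotype means ran from -0.11 in WS2 to 0.01 in bri1-1D. The part of these controls in the differences of the members was not tested.

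**Figure D2:**
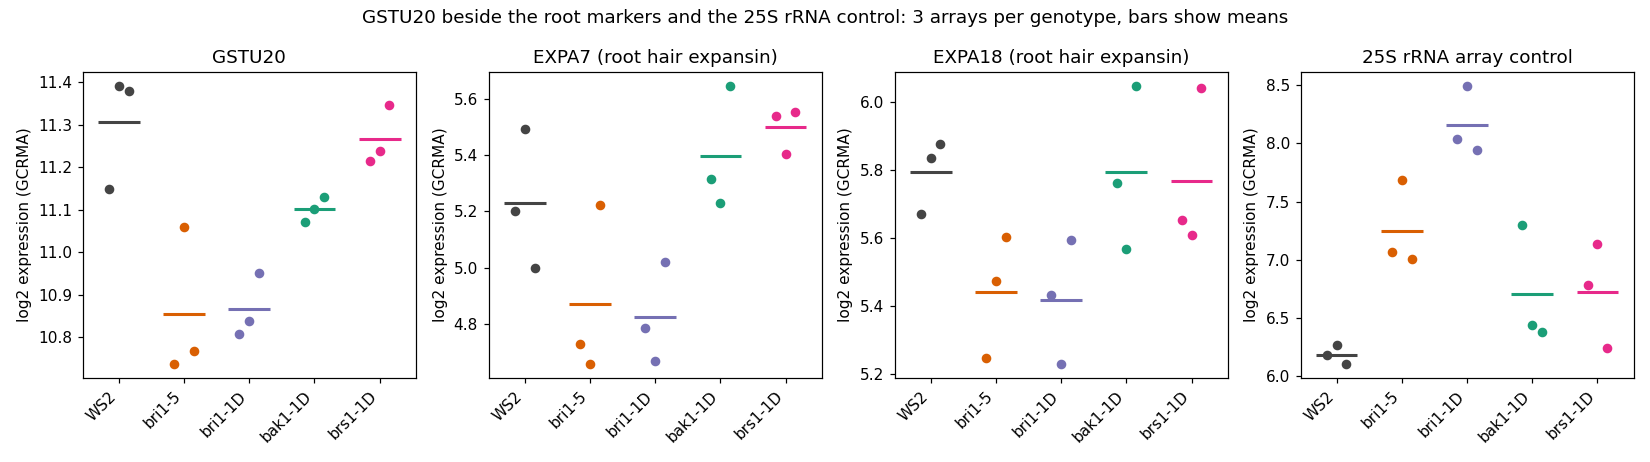
The log2 expression values (vertical axis, GCRMA scale, a separate range in each panel) of GSTU20, the root hair expansins EXPA7 and EXPA18, and the 25S rRNA array control on the 3 arrays of each genotype (points), with the genotype mean as a bar. GSTU20 and both expansins have their lower means in bri1-5 and bri1-1D, where the 25S rRNA control has its higher means.

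GSTU22 and GSTU25 rose together in brs1-1D. GSTU22 (AT1G78340) lies in the same run of genes as GSTU20, and GSTU25 (AT1G17180) encodes an enzyme known to conjugate the explosive trinitrotoluene. GSTU25 had log2 values of 5.83, 5.31 and 5.80 in brs1-1D and of 4.47, 4.74 and 4.71 in bri1-5. It stood at 4.46, 4.86 and 4.70 in WS2, at 5.02, 4.90 and 5.08 in bri1-1D, and at 4.61, 4.87 and 5.38 in bak1-1D. The brs1-1D arrays lay above every array of WS2, bri1-5 and bri1-1D, and the highest bak1-1D array reached above the lowest of brs1-1D.

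GSTU25 was higher in brs1-1D by 1.00 ± 0.17 than in bri1-5 (limma adjusted p = 0.00850), which is 2.01-fold, and by 0.97 ± 0.17 than in WS2 (limma adjusted p = 0.000932). It was the 1 member with a called difference of at least 2-fold. From highest to lowest the genotype means ran brs1-1D (5.64), bri1-1D (5.00), bak1-1D (4.95), WS2 (4.67) and bri1-5 (4.64), and no neighbours in this order were called apart (adjusted p from 0.0637 to 0.920). Against bri1-5, the differences of bri1-1D and bak1-1D were 0.36 ± 0.17 and 0.31 ± 0.17 and were not called (limma adjusted p = 0.513 and 0.339).

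GSTU22 had log2 values of 5.12, 4.65 and 5.04 in brs1-1D, 3.97, 4.21 and 4.31 in bri1-5, and 4.45, 4.51 and 4.52 in WS2. All brs1-1D arrays lay above all others. In bak1-1D the values were 4.35, 3.97 and 4.47. The 3 bri1-1D arrays and WS2 replicate 1 held 1 identical deposited value, 4.45, so the spread within bri1-1D was listed as 0. Of all tested probe sets, 33.2% had a value repeated on at least 2 arrays, but only 8 had 1 value on all 3 bri1-1D arrays.

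GSTU22 rose in brs1-1D against bri1-5 by 0.77 ± 0.13 (limma adjusted p = 0.00841), or 1.71-fold, a call that held whichever array was left out and in the fit of those 6 arrays alone (limma adjusted p = 0.0315). Against WS2 it was 0.44 ± 0.13 higher in brs1-1D (limma adjusted p = 0.0256), and this call was lost without any 1 WS2 array or without brs1-1D replicate 1 or 3 (limma adjusted p from 0.0546 to 0.106). In bri1-5 it stood below every WS2 array, with a difference of -0.33 ± 0.13 that was not called (limma adjusted p = 0.0964). For both genes brs1-1D replicate 2 was the lowest array of its genotype.

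The lines bak1-1D and brs1-1D differed from each other in these genes. GSTU22 was 0.68 ± 0.13 lower in bak1-1D (a difference of -0.68, limma adjusted p = 0.00468), with no overlap of arrays. GSTU25 was lower as well, with a difference of -0.69 ± 0.17 (limma adjusted p = 0.0212) and an overlap of arrays. The call for GSTU25 was lost without bak1-1D replicate 1 or 2 or brs1-1D replicate 1 or 3 (limma adjusted p from 0.0782 to 0.0989). Against bri1-1D, brs1-1D stood 0.48 ± 0.13 higher for GSTU22 and 0.65 ± 0.17 higher for GSTU25, neither of them called (limma adjusted p = 0.0677 and 0.0637).

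**Figure D3:**
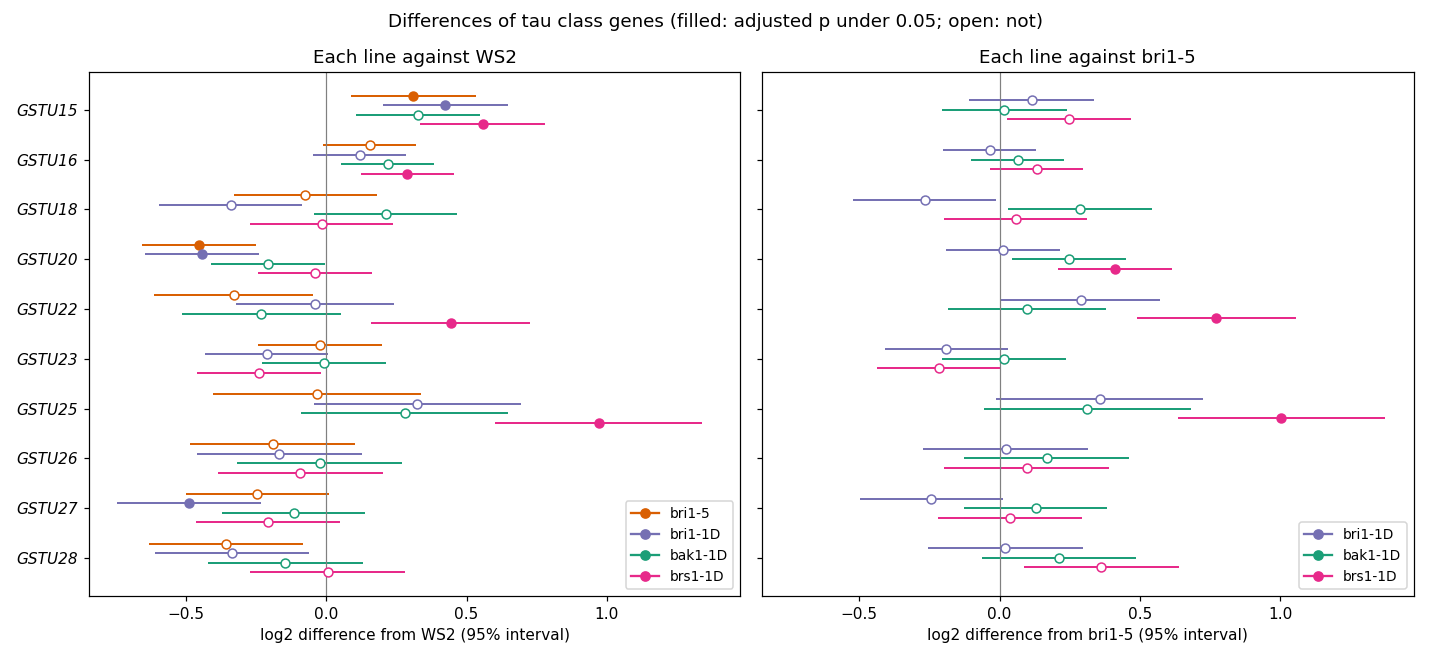
The log2 difference (horizontal axis) of each tau class member in each mutant line from WS2 (left) and from bri1-5 (right), with the 95% interval of the model as a line, filled points where the adjusted p over all probe sets was under 0.05 and open points elsewhere. The brs1-1D points of GSTU22 and GSTU25 lie farthest to the right, at 0.77 and 1.00 against bri1-5.

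GSTU15 (AT1G59670) was the only member called higher than wild type in several mutant lines. Its log2 values were 4.23, 4.13 and 4.16 in WS2, 4.65, 4.49 and 4.31 in bri1-5, and 4.78, 4.49 and 4.52 in bri1-1D. They were 4.49, 4.48 and 4.53 in bak1-1D and 4.57, 4.88 and 4.73 in brs1-1D. Every array of every mutant line lay above all 3 WS2 arrays. Between any 1 mutant line and WS2, 31.9% to 36.2% of all tested probe sets had no overlap of arrays, in either direction. The share that lay above WS2 in every mutant line was not computed. For GSTU15, bri1-5 replicate 2, bri1-1D replicate 2 and bak1-1D replicate 1 held 1 identical deposited value, 4.49. GSTU15 rose against WS2 by 0.56 ± 0.10 in brs1-1D (limma adjusted p = 0.00125), by 0.42 ± 0.10 in bri1-1D (0.00888) and by 0.31 ± 0.10 in bri1-5 (0.0483), and in bak1-1D it was 0.33 ± 0.10 higher without a call (0.0555).

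No suppressor line was told apart from bri1-5 in GSTU15, with differences of 0.11 in bri1-1D, 0.02 in bak1-1D and 0.25 in brs1-1D (limma adjusted p from 0.237 to 0.949). The call in bri1-5 was lost without any 1 WS2 or bak1-1D array, without bri1-5 replicate 1 or 2, bri1-1D replicate 3 or brs1-1D replicate 3 (limma adjusted p from 0.0519 to 0.190), and under 5 of the 6 other settings that tested it, while the calls in bri1-1D and brs1-1D held under all of these.

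GSTU16 (AT1G59700), the neighbour of GSTU15, had the same rank of WS2 with smaller differences. It stood at 6.93, 7.02 and 6.99 in WS2 and at 7.27, 7.23 and 7.29 in brs1-1D, without overlap. It rose in brs1-1D against WS2 by 0.29 ± 0.08 (limma adjusted p = 0.0140), a call lost without WS2 replicate 1 (0.0514). Values in bri1-5, bri1-1D and bak1-1D ran from 6.98 to 7.26, from 7.07 to 7.11 and from 7.16 to 7.23, with differences from WS2 of 0.15, 0.12 and 0.22 that were not called. The bri1-1D and bak1-1D arrays too lay above all WS2 arrays, while the bri1-5 arrays overlapped with WS2.

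GSTU18 and GSTU27 had their lowest mean in bri1-1D. GSTU27 (AT3G43800), the 1 member on chromosome 3, stood at 9.06, 8.80 and 9.05 in WS2 and at 8.39, 8.28 and 8.77 in bri1-1D. The bri1-1D arrays lay below all WS2 arrays, replicate 3 by little. GSTU27 fell in bri1-1D against WS2 by 0.49 ± 0.12 (limma adjusted p = 0.00886), while bri1-5 was lower by an uncalled -0.25 ± 0.12 (0.170). In bak1-1D it ranged from 8.80 to 8.94 and in brs1-1D from 8.63 to 8.86. Of the shoot markers PRK was also called lower in bri1-1D than in WS2, while LHCB4.1 (0.04) and RCA (0.02) were not called. The part of PRK in the fall of GSTU27 was not tested.

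GSTU18 (AT1G10360) had log2 values of 8.07, 8.29 and 7.96 in bak1-1D and 7.57, 7.66 and 7.43 in bri1-1D, which did not overlap. The arrays ran from 7.73 to 8.02 in WS2, 7.57 to 7.95 in bri1-5 and 7.76 to 7.98 in brs1-1D. The means of these genotypes lay between those of the suppressor lines bak1-1D and bri1-1D, with overlap of single arrays at both ends. Its only call was the difference between these suppressor lines, 0.55 ± 0.12 higher in bak1-1D than in bri1-1D (limma adjusted p = 0.00761). All bri1-1D arrays also lay below all WS2 arrays, with a difference of -0.34 ± 0.12 just outside the threshold (limma adjusted p = 0.0523). Against bri1-5 the differences were 0.29 ± 0.12 in bak1-1D and -0.27 ± 0.12 in bri1-1D, neither called (limma adjusted p = 0.199 and 0.470). PRK, a Calvin cycle enzyme gene of the shoot list, was also called higher in bak1-1D than in bri1-1D (0.28 ± 0.08). So was EXPA7 of the root list (0.57 ± 0.16). The other measured markers, LHCB4.1, RCA and EXPA18, differed there by 0.04, 0.06 and 0.37 without a call. The part of PRK and EXPA7 in the difference of GSTU18 was not tested.

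The other 3 members were called in none of the 10 comparisons by limma. GSTU28 (AT1G53680) stood at 4.84 to 5.17 in WS2, 4.47 to 4.89 in bri1-5, 4.57 to 4.81 in bri1-1D, 4.88 to 4.97 in bak1-1D and 4.92 to 5.32 in brs1-1D. Its order of means was that of GSTU20 with brs1-1D and WS2 exchanged, and the difference of bri1-5 from WS2 was -0.36 ± 0.13 (limma adjusted p = 0.0666). GSTU23 (AT1G78320) ranged from 4.46 to 5.01 over all arrays, with its lowest mean in brs1-1D, and GSTU26 (AT1G17190), known from responses to chloroacetanilide herbicides, ranged from 6.60 to 7.28. The largest differences between genotype means were 0.24 for GSTU23 and 0.19 for GSTU26, beside 1.00 for GSTU25.

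Counted over the family, bri1-5 against WS2 had 1 member called higher and 1 lower of 10, beside 9.45% of all tested probe sets called higher, 8.14% lower and 17.6% in either direction. With median centring, array weights or the compared groups alone the split was 0 higher and 2 lower. In brs1-1D against bri1-5, 3 members were called, all higher, beside 1.18% of probe sets called higher and 1.72% in either direction. None was called by limma in bri1-1D against bri1-5 (beside 0.245%), where 2 members had an unadjusted p under 0.05 beside 10% of probe sets. The count was also 0 in bak1-1D against bri1-5 (beside 4.34%), where 2 had an unadjusted limma p under 0.05 beside 19.1%. In bri1-1D against WS2, 1 member was higher and 2 were lower, beside 10.4% of probe sets higher, 10.3% lower and 20.7% in either direction. In brs1-1D against WS2, 4 were called, all higher, beside 10.9% higher and 20.4% in either direction. In bak1-1D against WS2 limma called 0 beside 10% of probe sets, and 3 members had an unadjusted p under 0.05 beside 25.4%.

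Between suppressor lines, bak1-1D against bri1-1D had 1 call (GSTU18, beside 10.1%), bak1-1D against brs1-1D had 2 (GSTU22 and GSTU25, beside 7.98%), and brs1-1D against bri1-1D had 1. That last call was GSTU20, which rose by 0.40 ± 0.09 (limma adjusted p = 0.0353, beside 2.17% of probe sets called) and was not called without any 1 bri1-1D or brs1-1D array or without bak1-1D replicate 1 (limma adjusted p up to 0.122).

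Counted by direction alone, called or not, most members lay on 1 side of 0 in some comparisons. In bak1-1D all 10 differences from bri1-5 were above 0, with a median of 0.15, while 38.6% of all tested probe sets were above 0 and their median was -0.04. In brs1-1D 9 of 10 were above 0, with GSTU23 the exception (-0.22 ± 0.10), a median of 0.19 and 45.7% of all probe sets above 0. In bri1-5 against WS2, 2 of 10 were above 0 (GSTU15 and GSTU16), with a median of -0.13 beside 0.02 over all and 53.9% of all probe sets above 0. These counts use the same 3 bri1-5 arrays and are given as a description of the 10 members.

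Gene order was read from the RefSeq table of the TAIR10.1 assembly. The 28 tau genes formed 12 runs, a run being neighbours with at most 5 other genes of the table between them. Of these runs 7 held 2 or more genes, and the rest were single genes without such a neighbour. On chromosome 1 lay 9 of the 10 members. GSTU20, GSTU22 and GSTU23 belong to a run with GSTU19 and GSTU21, GSTU25 and GSTU26 to a run with GSTU24, and GSTU15 and GSTU16 to another. Adjacent genes did not all have like profiles. Likeness was measured as the root mean square distance between the 5 genotype means after each gene was centred on its own mean, in log2 units. The 5 pairs within a run had distances from 0.11 (GSTU15 and GSTU16) to 0.37 (GSTU25 and GSTU26), with a median of 0.21, and the 40 other pairs from 0.04 (GSTU20 and GSTU28) to 0.45 (GSTU23 and GSTU25), with a median of 0.20. GSTU25, which rose in brs1-1D, and the next gene GSTU26, which gave no call, were the neighbours farthest apart. Tau genes of a run are similar in sequence, and whether the RNA of an unmeasured neighbour such as GSTU19 or GSTU24 binds these probe sets was not tested.

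**Figure D4:**
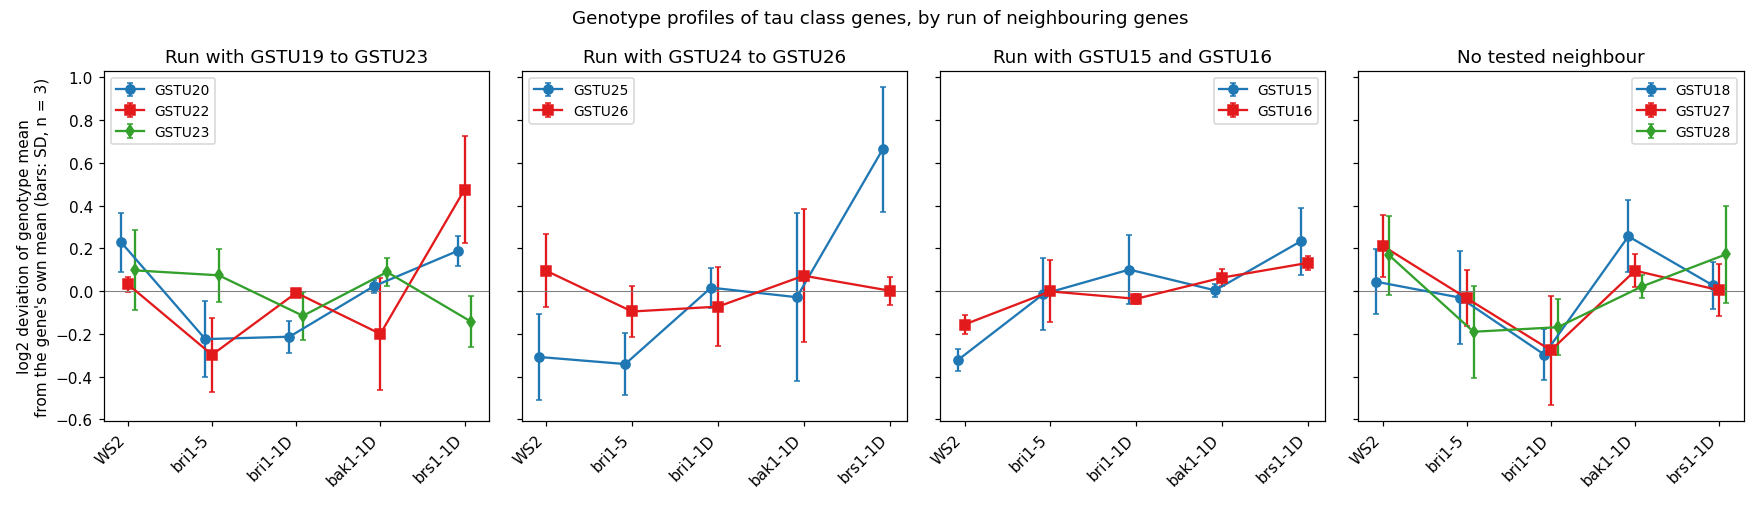
The mean of each genotype as a log2 deviation from the mean of the gene over the 5 genotypes (vertical axis), with the SD of 3 arrays as bars, for members grouped by runs of neighbouring genes. GSTU25 rises to the right in brs1-1D while its neighbour GSTU26 stays near 0, and GSTU15 and GSTU16 share their low point in WS2.

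By the same distance over 5 genotype means, GSTU28 was the probe set closest to GSTU20 among 8660 others with 1 listed gene (0.04), followed by the vacuolar sugar transporter gene SWEET16 (0.04) and AT2G44370 (0.05). Closest to GSTU22 were AT4G08170 (0.04), GRX480, a glutaredoxin gene whose product is known to bind TGA transcription factors (0.08), and AT4G22610 (0.08). Closest to GSTU25 were AT2G31940 (0.04), AT3G25640 (0.10) and AT1G59970 (0.13). The closest gene was AT3G51990 for GSTU15 (0.03), AT3G24070 for GSTU16 (0.01), AT3G28850 for GSTU18 (0.01) and AT1G03740 for GSTU27 (0.02). These genes were picked for likeness, so the distances describe the pick.

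**Figure D5:**
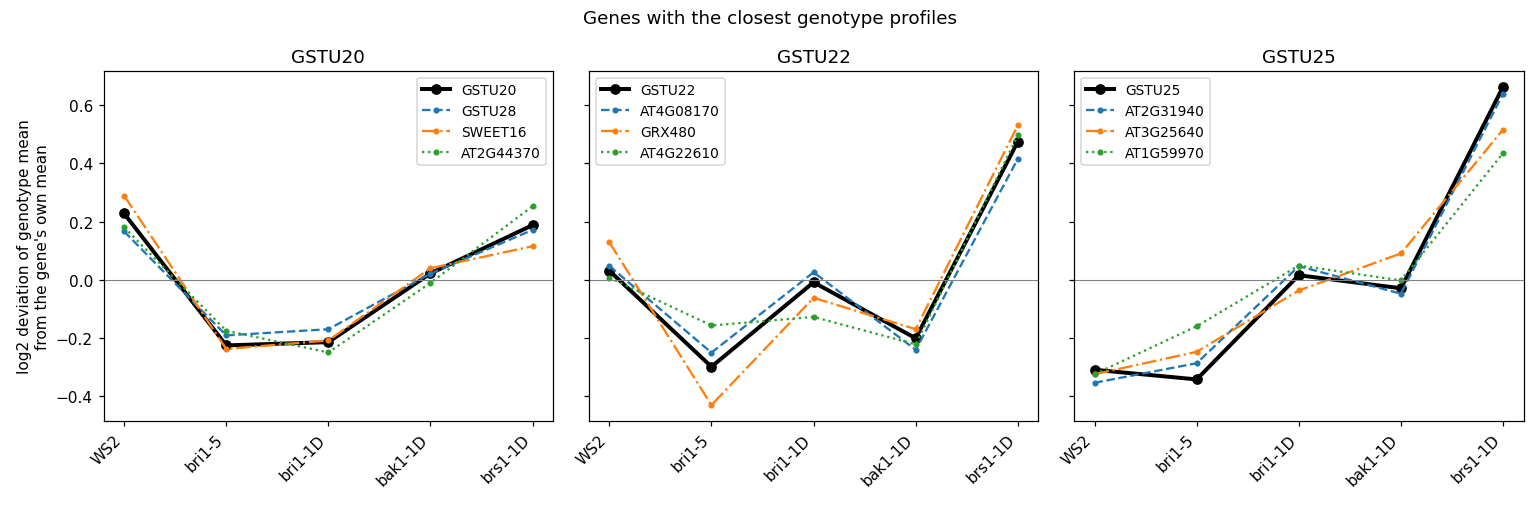
Genotype means as log2 deviations from the mean of each gene (vertical axis) for GSTU20, GSTU22 and GSTU25 (black) and the 3 genes with the closest profile to each (coloured). The companions of GSTU25 peak in brs1-1D at 0.44 to 0.64, below the 0.66 of GSTU25.

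Other genes of glutathione use and detoxification were measured only in part. The lists held 2 tested of 13 phi class transferases, 1 of 14 of other classes, 2 of 19 for glutathione synthesis and turnover, 0 of 15 ABCC transporters that carry conjugates into the vacuole, 5 of 28 for the xenobiotic response, 2 of 27 for glucosinolate synthesis and 2 of 28 for hydrogen peroxide scavenging. In bri1-5 against WS2, 1 of these 14 genes was called beside 17.6% of all tested probe sets. It was AER, an alkenal reductase gene of the xenobiotic list, which fell by 0.29 ± 0.09 (limma adjusted p = 0.0449).

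In brs1-1D against bri1-5, 1 of these 14 was called, beside 1.72% of all tested probe sets. UGT74B1, which encodes the glucosyltransferase of glucosinolate synthesis, stood at 8.79, 8.99 and 8.89 in brs1-1D and at 8.38, 8.47 and 8.42 in bri1-5, without overlap, and rose by 0.47 ± 0.08 (limma adjusted p = 0.0100). In bri1-1D and in bak1-1D against bri1-5 none of the 14 was called by limma, beside 0.245% and 4.34% of probe sets. At an unadjusted limma p under 0.05 there were 2 and 0 of them, beside 10% and 19.1%. In bri1-1D against WS2, 3 of the 14 were called, all lower, beside 10.3% of probe sets lower and 20.7% in either direction. In brs1-1D against WS2, 4 of the 14 were called, all higher, beside 10.9% of probe sets higher and 20.4% in either direction. UGT74B1 was 1 of these 4 (0.31 ± 0.08, limma adjusted p = 0.0171). The other 3 were from the xenobiotic list, which had 5 members tested. They were the glucosyltransferase genes UGT73B4 (0.61 ± 0.10) and UGT73B5 (0.41 ± 0.13) and the alkenal/one oxidoreductase gene AOR (0.29 ± 0.08), named after their values were seen. UGT73B4 lay near the filter of log2 4, at 3.75 to 3.80 in WS2 and 4.21 to 4.56 in brs1-1D. AER of the same list lay lower there, with all brs1-1D arrays below WS2 and a difference of -0.26 ± 0.09 that was not called (limma adjusted p = 0.0628). Against bri1-5 none of UGT73B4, UGT73B5 and AOR was called in brs1-1D, with differences of 0.37, 0.29 and 0.11. The glutathione reductase genes GR and GR1 were called in none of the 4 comparisons of bri1-5 with WS2 and of a suppressor with bri1-5.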

How the data were processed

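Total RNA of whole seedlings was labelled as biotin cRNA and hybridised to 15 ATH1 arrays, per the labels' protocols. The deposited values are log2 expression that the authors made with GCRMA, per the submitters' processing notes; the sources used here give neither its version nor its settings, and GCRMA can give low probe sets identical values on several arrays. Probe sets above log2 4 on at least 3 arrays were kept, which left 15912 without array controls. Genes were named only where the platform table listed 1 gene. All 15 arrays entered 1 limma fit (limma 3.58.1, R 4.3.3) with 1 mean for each of 5 genotypes, and p-values were adjusted by Benjamini-Hochberg over all tested probe sets, with 0.05 as the threshold. The script was tested on simulated data. Groups came from the array titles and the series design, which calls the samples biological replicates.

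Members were all probe sets with a GSTU symbol. The rule for naming genes of other lists was a call in bri1-5 against WS2 or in a suppressor against bri1-5, with the 3 closest profiles for each member called by any comparison. Outside this rule, UGT73B4, UGT73B5 and AOR were named after their values were seen, and GR and GR1 were named without a call. The members and lists were chosen with earlier results of these data known. Replicate numbers were checked as pairs. Deviations of same-numbered arrays correlated above 0.1 for all 3 pairs in 3 of 10 comparisons, bri1-5 against WS2 (0.104 to 0.346) and bri1-1D and brs1-1D against bri1-5, and there the replicate block changed no call of a member. The labels do not say what a number shares, and for bak1-1D and brs1-1D only the titles number the arrays. The number of arrays limits the precision, and 3 a genotype give standard errors of 0.08 to 0.17 for the members. The alternatives were no filter, a stricter filter, median centring, a trended robust variance, array weights, the compared groups alone, the replicate block and leaving out each array.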

Additional observations from a re-analysis of the deposited data

Results flagged for a closer look

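The suppressor lines differed from each other, by a direct test in limma, in 4 of 10 members and in 3 of 14 genes of the other lists (UGT74B1, AOR and UGT73B4). They also differed in 2 tissue markers, all measured against the same bri1-5 background. These counts pool 3 comparisons, and no share over all probe sets was computed for them. In bak1-1D against bri1-1D 1 of the 14 was called, beside 10.1% of all tested probe sets. In bak1-1D against brs1-1D it was 2 beside 7.98%, and in brs1-1D against bri1-1D 2 beside 2.17%. GSTU18 was 0.55 higher on the log2 scale in bak1-1D than in bri1-1D (adjusted p = 0.00761). Between bak1-1D and brs1-1D the difference was -0.68 for GSTU22 (limma adjusted p = 0.00468) and -0.69 for GSTU25 (limma adjusted p = 0.0212). GSTU20 was 0.40 higher in brs1-1D than in bri1-1D (limma adjusted p = 0.0353). The calls for GSTU25 and GSTU20 were lost in several fits that left out 1 array. They were also lost with the compared groups alone (limma adjusted p = 0.0609 and 0.0881). UGT74B1 differed by -0.46 between bak1-1D and brs1-1D (limma adjusted p = 0.00324) and was 0.39 higher in brs1-1D than in bri1-1D (limma adjusted p = 0.0244). AOR was 0.34 higher in bak1-1D (limma adjusted p = 0.0133) and 0.33 higher in brs1-1D (limma adjusted p = 0.0419) than in bri1-1D, and UGT73B4 differed by -0.40 between bak1-1D and brs1-1D (limma adjusted p = 0.0219). Of the tissue markers, EXPA7 was 0.57 higher in bak1-1D (limma adjusted p = 0.0290) and 0.67 higher in brs1-1D (limma adjusted p = 0.0329) than in bri1-1D, and PRK was 0.28 higher in bak1-1D than in bri1-1D (limma adjusted p = 0.0475). AOR and UGT73B4 were named after their values were seen, and UGT73B4 lay near the filter of log2 4, at 3.95 to 4.02 in bak1-1D. Groups of 3 arrays were too small to test for a single array that stands apart.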

How the results depend on the processing

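No member difference changed sign together with a call, and 10 of the 16 calls held whichever of the 15 arrays was left out. In what follows, calls over all tested probe sets in the same fit are given in brackets. Leaving out 1 array gave 1 to 3 called members in bri1-5 against WS2 (1761 to 2922). It gave 0 to 0 in bri1-1D (6 to 47) and in bak1-1D (321 to 736) against bri1-5. It gave 2 to 3 in brs1-1D against bri1-5 (112 to 368) and 3 to 5 in bri1-1D against WS2 (2246 to 3377). It gave 0 to 1 in bak1-1D against WS2 (828 to 1678) and 2 to 4 in brs1-1D against WS2 (2309 to 3334). Between suppressor lines it gave 1 to 2 in bak1-1D against bri1-1D (909 to 1650) and 1 to 2 in bak1-1D against brs1-1D (719 to 1366). In brs1-1D against bri1-1D it gave 0 to 2 (81 to 418), and the F test over genotypes gave 4 to 7 (3236 to 4223). The count in bri1-5 against WS2 was 1 with no filter (2658), 1 with the stricter filter (2226) and 1 with a trended robust variance (2817). It stayed at 2 with median centring (2757), array weights (3783) and the compared groups alone (2502), but GSTU15 was lost each time. GSTU28 (limma adjusted p = 0.0455 and 0.0313) or, with the groups alone, GSTU22 (limma adjusted p = 0.0497) was gained, so both calls were then lower. GSTU18 in bri1-1D against WS2 was gained with the stricter filter (limma adjusted p = 0.0457), median centring (0.0359) and a trended robust variance (0.0375), and without WS2 replicate 1, bri1-5 replicate 2 or bak1-1D replicate 2. The stricter filter, log2 above 6, tests fewer members by construction. It gave 1 in brs1-1D against bri1-5 (235), 1 in brs1-1D against WS2 (2521), 2 in bak1-1D against bri1-1D (1512) and 0 in bak1-1D against brs1-1D (1057). A trended robust variance gave 2 in bak1-1D against bri1-1D (1704, from 1611 in the main fit). Array weights gave 1 in bak1-1D against bri1-5 (GSTU20, limma adjusted p = 0.0467) and 1 in bak1-1D against WS2 (GSTU15, limma adjusted p = 0.0303). They gave 0 in brs1-1D against bri1-1D. Calls over all probe sets moved from 690 to 1256, from 1595 to 2161 and from 346 to 196 in these comparisons. The compared groups alone gave 1 in bak1-1D against WS2 (1565), 1 in bak1-1D against brs1-1D (1170) and 0 in brs1-1D against bri1-1D (136). The replicate block gave 2 in bak1-1D against bri1-1D, with GSTU27 added (limma adjusted p = 0.0131). It gave 3 in brs1-1D against bri1-1D, with GSTU22 (limma adjusted p = 0.0493) and GSTU25 (limma adjusted p = 0.0460) added. Calls over all probe sets moved from 1611 to 2016 and from 346 to 496 in these comparisons. The cause of these changes was not tested. Median centring moved the split of all calls from 1503 higher and 1296 lower to 1152 and 1605 in bri1-5 against WS2, and from 468 and 222 to 583 and 157 in bak1-1D against bri1-5. With 3 arrays a genotype, and GSTU15, GSTU22, GSTU23, GSTU25 and GSTU28 near the floor of the scale, small differences may have gone without a call.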
